A study of Mus musculus with 8 samples.

Results

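The 10 genes described here encode proteins to which endostatin has been reported to bind at the cell surface, together with proteins that act beside them: the integrin subunits Itga5, Itgav, Itgb1, Itgb3 and Itgb5, the glypicans Gpc1 and Gpc4, nucleolin (Ncl), caveolin 1 (Cav1) and focal adhesion kinase (Ptk2). They are listed by name, with no threshold on a measured value, and make up 10 of the 37046 features that the RNA-seq files give. A feature is a gene, or a transcript that matched no gene name. All 8 libraries come from white adipose tissue of wild-type female mice of the C57BL/6J strain. In the control group 4 libraries came from mice injected with phosphate-buffered saline (PBS), and in the endostatin group 4 came from mice given endostatin at 50 mg/kg, both through the tail vein. Tissue was taken after 2 h in both groups, in the daytime, and both went without food in between. Age is not given in the labels. The labels put control 1, control 2, endostatin 1 and endostatin 2 in batch 1, and control 3, control 4, endostatin 3 and endostatin 4 in batch 2, without saying what the batches are. The tissue is labelled epididymal although the mice are female. The number of mice is given as 4, which could be per group or in all, and no library is tied to an animal, so the p-values speak for the variation among these libraries, some of which may be technical.

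Integrins are surface receptors made of an alpha and a beta subunit. Each pair has its own set of extracellular matrix ligands, with alpha5beta1 known as the fibronectin receptor and alphavbeta3 and alphavbeta5 as vitronectin receptors. Ligand binding gathers talin, kindlins and focal adhesion kinase at focal adhesions, from which Src family kinases are activated. Endostatin, a fragment of collagen XVIII, is known as an inhibitor of angiogenesis that acts on endothelial cells. Its reported partners at the surface include alpha5 and alphav integrins, the heparan sulfate chains of glypicans, and nucleolin that has reached the plasma membrane, and its signal through alpha5beta1 has been described at caveolin 1-rich membrane. Fat cells are themselves rich in caveolae, the small membrane pits that caveolin 1 forms.

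Total estimated counts ran from 15826783 in control 3 to 23786594 in endostatin 1, so that 3 counts, the most that a count of 0 allows, correspond to 0.190 to 0.126 CPM (counts scaled to the total of the library). All 11 fat cell markers examined reached at least 1 TPM (a level scaled to transcript length and library total) in all 8 libraries, and their summed level was lowest in control 3 (28810 TPM) and highest in control 4 (56400 TPM). A pair of libraries, 1 per group, stood apart: the total of 10 oviduct and uterus markers was 616 TPM for control 3 and 872 TPM for endostatin 4, while each of the other 6 had 8.57 to 37.6 TPM. The libraries of this pair differed in which markers were high. In endostatin 4, Sprr2f, Ltf, Pgr, Msx1 and Hoxa11 were at 502, 298.3, 5.08, 11.6 and 8.89 TPM. In control 3 they were at 114.5, 87.9, 97.2, 162.4 and 46.0 TPM. Epcam and Pax8 were at 49.6 and 40.3 TPM in control 3 and at 32.4 and 12.75 TPM in endostatin 4. A second pair, both controls, carried more skeletal muscle RNA, with 11 markers totalling 347 TPM for control 1 and 592 TPM for control 4, and 91.9 to 158 TPM elsewhere. The summed level of 14 endothelial markers was even, at 703 to 888 TPM. Single markers could vary more, as Cldn5 did, from 22.35 to 78.82 TPM. In such bulk tissue, fewer cells of a type and less RNA per cell cannot be told apart.

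None of the 10 genes passed the test between endostatin and control libraries. In edgeR's quasi-likelihood test with Benjamini-Hochberg adjustment over 15184 genes, 0 of 10 passed an adjusted p of 0.05, against 0% of all genes tested, and the adjusted p was 1 for each of the 10. At an unadjusted p under 0.05 the count was also 0 of 10, where 3.19% of all genes lay. The other tools, DESeq2 and limma-voom, likewise called 0 of the 10 adjusted or unadjusted, while over all genes they gave 4 and 0 adjusted calls and 600 and 469 unadjusted ones, against 485 unadjusted in edgeR. The ranges of the groups in CPM overlapped for 10 of 10 genes, and failed to overlap for 1.64% of all genes. Fold changes were positive for 5 of 10 (46.6% of all genes), with a median of 0.01 on the log2 scale against -0.01 for all genes.

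**Figure D1:**
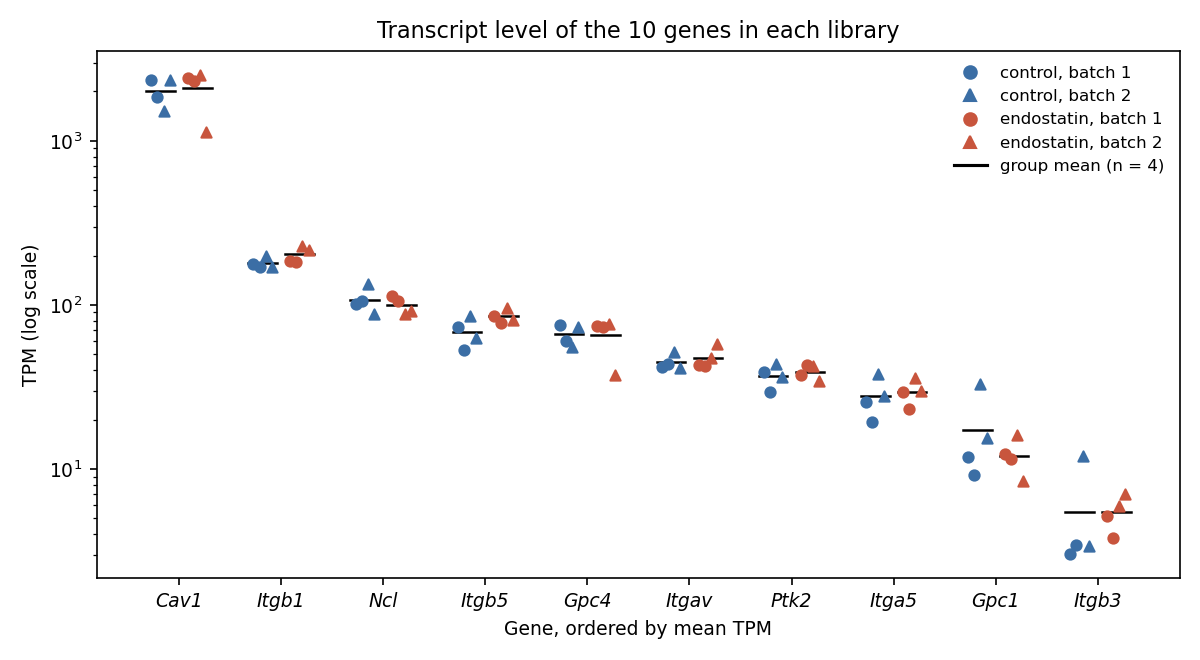
Level of each of the 10 genes in TPM on a log axis, ordered by mean, with 1 point per library (4 control, 4 endostatin). Cav1 lies between 1132 and 2528 TPM, above all others in every library, and Itgb3 between 3.04 and 12.0 TPM, and the neighbouring genes from Ncl downwards overlap.

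Levels between genes were compared in TPM, taken over all 8 libraries. Cav1 was the highest at 2056 ± 503 TPM (SD, n = 8), above 99.9% of all features in the files. Itgb1, the beta subunit shared by the largest number of integrins, followed at 192 TPM, and then Ncl at 104 TPM. Below these came Itgb5 (76.8 TPM), Gpc4 (65.8 TPM), Itgav (46.0 TPM), Ptk2 (38.1 TPM), Itga5 (28.7 TPM), Gpc1 (14.7 TPM) and Itgb3 (5.49 TPM). Itgb3 lay above 69.4% of features. Only the first steps of this order, Cav1 over Itgb1 and Itgb1 over Ncl, had ranges that did not overlap. All 7 later neighbours overlapped in range, although the gene with the higher mean was also the higher within 8 of 8 libraries for Ptk2 over Itga5, Itga5 over Gpc1 and Gpc1 over Itgb3. It was so in 7 of 8 for Ncl over Itgb5, Gpc4 over Itgav and Itgav over Ptk2, and in 5 of 8 for Itgb5 over Gpc4.

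A summed TPM counts short annotated transcripts at full weight. Itgav is the clearest case: its full-length coding transcript Itgav-201 held 46.4% of the gene's TPM but 90.7% of its reads on average, and a 688-base transcript, Itgav-206, held 45.6% of the TPM and 6.08% of the reads. By its leading transcript alone the level of Itgav was 21.4 TPM, that of Itga5 20.7 TPM and that of Ptk2 16.02 TPM. Cav1-201 alone stood at 976 TPM.

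Among the alpha subunits, Itga5 (ENSMUSG00000000555) pairs only with beta1 and binds fibronectin. Its CPM was 47.8, 38.9, 57.1 and 52.7 in controls 1 to 4 and 53.7, 44.9, 69.9 and 54.3 in endostatin 1 to 4. The highest library was endostatin 3, and the other 3 endostatin libraries lay within the control range. The log2 fold change was 0.18 ± 0.12 (SE, n = 4 per group), with a 95% interval from -0.09 to 0.45. It was 0.19 in batch 1 and 0.18 in batch 2. With 1 library left out at a time it ran from 0.10, without endostatin 3, to 0.25, without endostatin 4. Itga5 was higher in batch 2 than in batch 1 by 0.34 ± 0.12 on the log2 scale (edgeR adjusted p = 0.499), a larger fold change than that between the treatments.

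Itgav (ENSMUSG00000027087), the alpha subunit shared by beta1, beta3 and beta5, gave 98.05, 92.6, 105.8 and 77.8 CPM in controls and 100.4, 88.8, 92.0 and 109.4 CPM in endostatin libraries. The ranges of the groups largely coincided, and the lowest library of all was control 4. Endostatin minus control came to 0.06 ± 0.12 on the log2 scale, with an interval from -0.21 to 0.34, and it was -0.01 in batch 1 and 0.13 in batch 2. Its sign turned on 1 library: it was -0.03 without control 4 and -0.01 without endostatin 4. In summed TPM Itgav was 1.32 to 2.25 times Itga5, but by leading transcripts alone the ratio ran from 0.736 to 1.34 and was above 1 in 6 of 8 libraries, so their order depends on how transcripts are summed.

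Of the beta subunits, Itgb1 (ENSMUSG00000025809), the partner of alpha5, was among the steadiest of the 10 genes. Its controls held 376.5, 364.3, 350.3 and 361.8 CPM and its endostatin libraries 373.7, 373.0, 449.8 and 412.4 CPM. The endostatin libraries of batch 1 lay within the control range, and those of batch 2 were above every control. The log2 fold change over both batches was 0.14 ± 0.10 (interval -0.10 to 0.38), made of 0.01 in batch 1 and 0.28 in batch 2. For Itgb1, leaving out 1 library at a time gave 0.09, without endostatin 3, to 0.18, without control 1. On the log2 scale its range over the 8 libraries was narrower than that of all but 13.1% of genes tested.

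Itgb5 (ENSMUSG00000022817), which forms alphavbeta5, had the smallest p of the 10. It stood at 139.7, 93.5, 133.0 and 115.6 CPM in controls and at 146.8, 136.7, 169.7 and 133.6 CPM in endostatin libraries. Every endostatin library was above 3 of the 4 controls, and endostatin 1 and endostatin 3 were above all 4. The mean was 120.4 ± 20.6 CPM in controls and 146.7 ± 16.3 CPM with endostatin (SD, n = 4 each), a fold of 1.22 with an interval from 0.968 to 1.53. On the log2 scale this was 0.28 ± 0.14, with 0.28 in batch 1 and 0.29 in batch 2. Leaving out 1 library at a time moved it between 0.18, without control 2, and 0.41, without control 1.

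Itgb3 (ENSMUSG00000020689), another partner of alphav and also the beta subunit of the platelet fibrinogen receptor, was the lowest and the most variable of the 10. Controls held 11.1, 12.1, 34.9 and 11.8 CPM, and endostatin libraries 17.2, 12.9, 19.5 and 22.4 CPM. Control 3 was 2.32 times the median library, while the other 3 controls were the lowest of the 8 libraries and the 4 endostatin libraries lay in between. With all libraries the log2 fold change was 0.11 ± 0.31 (interval -0.62 to 0.83), and the batches differed in sign, at 0.38 in batch 1 and -0.16 in batch 2. The difference between the batches was -0.54 ± 0.64 (edgeR interaction, adjusted p = 0.997).

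Of the single libraries, control 3 moved the fold change of Itgb3 most. Without control 3 the log2 fold change was 0.54. Without both control 3 and endostatin 4, the libraries with high totals of oviduct and uterus markers, it was 0.49 ± 0.15 (edgeR adjusted p = 0.617). Without control 4 it was -0.10, without endostatin 1 it was -0.03, and without both control 1 and control 4, the libraries with more muscle RNA, it was -0.25. The part of these other tissues in the level of Itgb3 was not tested. Of 6 platelet markers, Gp1ba, Gp9, Gp6 and Treml1 stayed under 1 TPM in every library, with highest values of 0.282, 0.976, 0.439 and 0.736 TPM. Ppbp ran from 0.716 to 1.49 TPM in controls and from 1.33 to 3.77 TPM with endostatin, and Pf4, also known from macrophages, from 62.8 to 138 TPM over all libraries. Ppbp and Pf4 were the 2 tested, both with positive fold changes and a median of 0.64 on the log2 scale. That median was -0.02 in batch 1 and 1.31 in batch 2. It was 0.32 without both control 3 and endostatin 4, and 0.71 without both control 1 and control 4. The 6 markers summed to 64.9 to 113 TPM in controls and 97.4 to 143 TPM with endostatin. The part of platelets in the level of Itgb3 was not tested.

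The balance of beta subunits moved with these libraries. Itgb1 was 2.16 to 3.21 times Itgb5 in TPM in all 8 libraries. Itgb5 was 24.1 times Itgb3 in control 1 and 7.08 times Itgb3 in control 3, and in the endostatin group the ratio ran from 11.5 to 20.2.

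Of the glypicans, heparan sulfate proteoglycans held to the membrane by a lipid anchor, Gpc1 (ENSMUSG00000034220) gave 28.6, 22.9, 59.2 and 38.1 CPM in controls and 27.0, 27.3, 35.4 and 19.0 CPM in endostatin libraries. Control 3 was again the highest, at 2.12 times the median, and endostatin 4 the lowest, at 0.681 times. Its log2 fold change was -0.38 ± 0.27 (interval -1.02 to 0.25). It was 0.08 in batch 1 and -0.84 in batch 2, which holds both of those libraries; the difference between batches was -0.92 ± 0.46 (edgeR interaction, adjusted p = 0.997). Without both it was 0.01 ± 0.11.

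Gpc4 (ENSMUSG00000031119) is also known as a glypican that fat cells release into blood, where it enhances insulin receptor signalling. It stood at 120.6, 91.3, 69.9 and 111.4 CPM in controls and at 107.0, 108.8, 108.9 and 51.7 CPM in endostatin libraries. Here control 3 and endostatin 4 were both low, at 0.648 and 0.479 times the median, and the other 6 libraries spanned only 1.32-fold. Between treatments the log2 fold change was -0.07 ± 0.25 (interval -0.64 to 0.49) with all libraries and 0.00 ± 0.11 without those 2. Its sign changed without control 4 (0.10), without endostatin 4 (0.12) and without both control 1 and control 4 (0.22). Gpc4 exceeded Gpc1 by 4.43 to 6.51 times in TPM in 7 libraries and by 1.68 times in control 3.

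Nucleolin (Ncl, ENSMUSG00000026234), mainly a nucleolar protein of ribosome synthesis that also appears on the surface of growing endothelial cells, gave 234.3, 232.4, 249.8 and 199.4 CPM in controls and 236.8, 226.9, 190.4 and 192.5 CPM in endostatin libraries. The endostatin libraries of batch 1 sat among the controls, and those of batch 2 were the lowest of all. Its log2 fold change was -0.12 ± 0.10 (interval -0.36 to 0.12), with -0.01 in batch 1 and -0.23 in batch 2. Without both control 3 and endostatin 4 it was -0.03 ± 0.07.

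Of the 12 other nucleolar genes listed, which cover ribosome synthesis factors and RNA polymerase I, 0 were called. All 12 had negative fold changes, with a median of -0.18 on the log2 scale against -0.01 for all genes, and within batch 1 and batch 2 alone the medians were -0.12 and -0.27. The batches had the same sign for 7 of the 12 (58.3%), where 47.7% of all genes did. Fbl, the methyltransferase that modifies ribosomal RNA, held 28.2, 27.8, 38.7 and 31.9 CPM in controls and 24.2, 23.9, 27.4 and 24.5 CPM with endostatin. Its ranges did not overlap, and its log2 fold change was -0.33 ± 0.10 (edgeR adjusted p = 1). Nop2, another ribosomal RNA methyltransferase, differed by -0.26 ± 0.09. Control 3 had the highest summed level of the list, at 882 TPM, endostatin 4 had 612 TPM and the other 6 libraries 500 to 564 TPM. Without both of these libraries 5 were positive and 7 negative, with a median of -0.11, and without both control 1 and control 4 all 12 were negative, with a median of -0.21. All 12 were also negative with RLE, upper-quartile and plain library-size scaling.

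Caveolin 1 (Cav1, ENSMUSG00000007655), the coat protein of caveolae, is known in a long form, alpha, and a short form, beta, that starts at a later methionine. Both starts are in the annotated transcripts. The coding sequence of Cav1-201 has 534 bases and gives 178 residues, and those of Cav1-202 and Cav1-203 have 441 bases and give 147 residues, starting 93 bases further on. The first 123 coding bases of Cav1-201 and the first 30 of Cav1-202, from the GENCODE M21 transcripts, are shown with the later start codon in capitals.
Cav1-201: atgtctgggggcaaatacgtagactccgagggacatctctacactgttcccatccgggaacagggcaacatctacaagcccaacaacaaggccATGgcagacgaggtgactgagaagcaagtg
Cav1-202: ATGgcagacgaggtgactgagaagcaagtg
In TPM, Cav1-202 and Cav1-203, which begin at the later start, together had 0.438 ± 0.0455 of the level of Cav1-201 in controls and 0.474 ± 0.0603 in endostatin libraries (SD, n = 4 each). Other annotated Cav1 transcripts were left out of this ratio. Cav1-203, of 613 bases, had 268 TPM on average and Cav1-202 had 168 TPM. Of the reads of the gene, Cav1-203 held 3.63%, Cav1-202 14.8% and Cav1-201 77.3%, so the ratio in TPM gives the short transcript much weight. This ratio in TPM ran from 0.382 in control 2 to 0.559 in endostatin 4, and the groups overlapped.

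At the gene level Cav1 stood at 2231, 1709, 1099 and 2018 CPM in controls and at 2088, 1948, 2064 and 822.7 CPM in endostatin libraries. Control 3 and endostatin 4 were the lowest, at 0.554 and 0.415 times the median, and the other 6 spanned 1.31-fold. Over all libraries the log2 fold change was -0.04 ± 0.32 (interval -0.78 to 0.70), the widest interval of the 10. Without both low libraries it was 0.03 ± 0.14. Its sign also changed without control 1 (0.03), without control 4 (0.18), without endostatin 4 (0.18) and without both control 1 and control 4 (0.32).

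**Figure D2:**
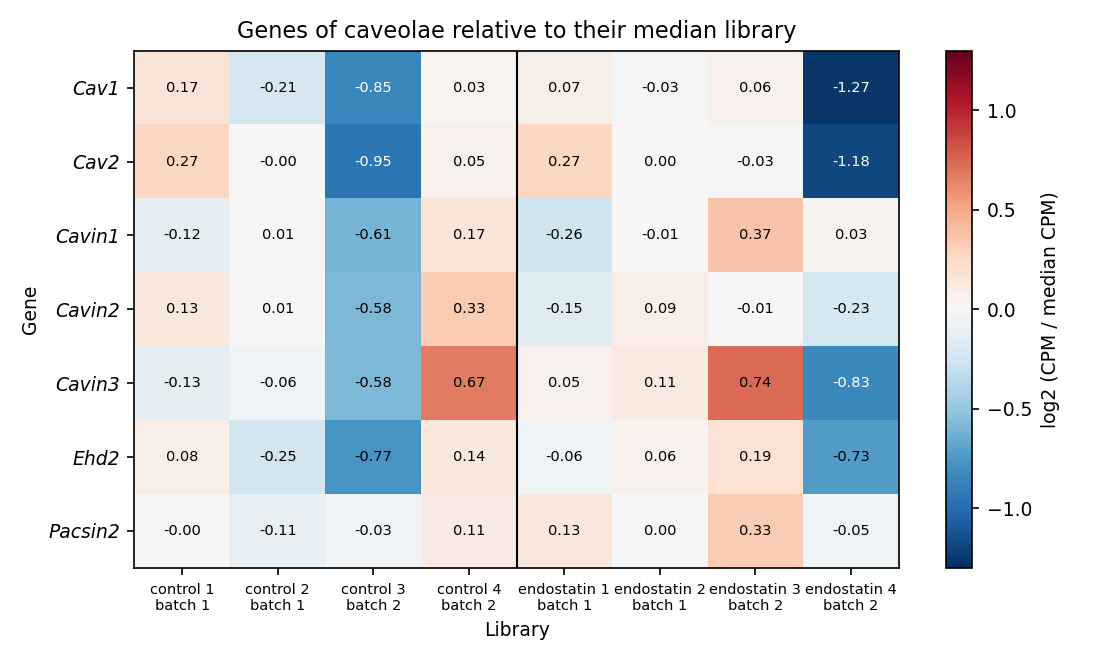
Genes of caveolae in each library as log2 of CPM over the gene's median library, with 1 row per gene and 1 column per library. Cav1, Cav2 and Ehd2 are low in both control 3 and endostatin 4 (Cav2 at 0.519 and 0.441 times its median), while Pacsin2 is near its median in both.

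Other caveolar genes divided along the same pair of libraries. Cav2, the partner of caveolin 1 in the coat, was at 0.519 times its median in control 3 and 0.441 times in endostatin 4, and Ehd2, the ATPase at the neck of the pit, at 0.587 and 0.603 times. Cavin3 was at 0.669 and 0.561 times. Cavin1, the coat protein without which caveolae do not form, was at 0.657 times in control 3 but 1.02 times in endostatin 4, and Cavin2 at 0.668 and 0.854 times. Pacsin2, which bends membranes elsewhere in the cell too, was near its median in both, at 0.979 and 0.964 times. The fat cell marker total was 28810 TPM for control 3 and 49670 TPM for endostatin 4, where the other 6 had 42700 to 56400 TPM, and that of 9 fibroblast markers was 3922 and 5399 TPM, where the others had 2456 to 3746 TPM. Their part in the caveolar values was not tested. Between treatments, 7 of the 8 caveolar genes were tested, 0 were called, 4 were positive and 3 negative, and the log2 fold change was 0.15 ± 0.22 for Cavin1, 0.12 ± 0.10 for Pacsin2, -0.08 ± 0.20 for Cavin2 and -0.06 ± 0.29 for Cav2. Without both control 1 and control 4, Cavin2 was 0.21 and Cav2 0.30.

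**Figure D3:**
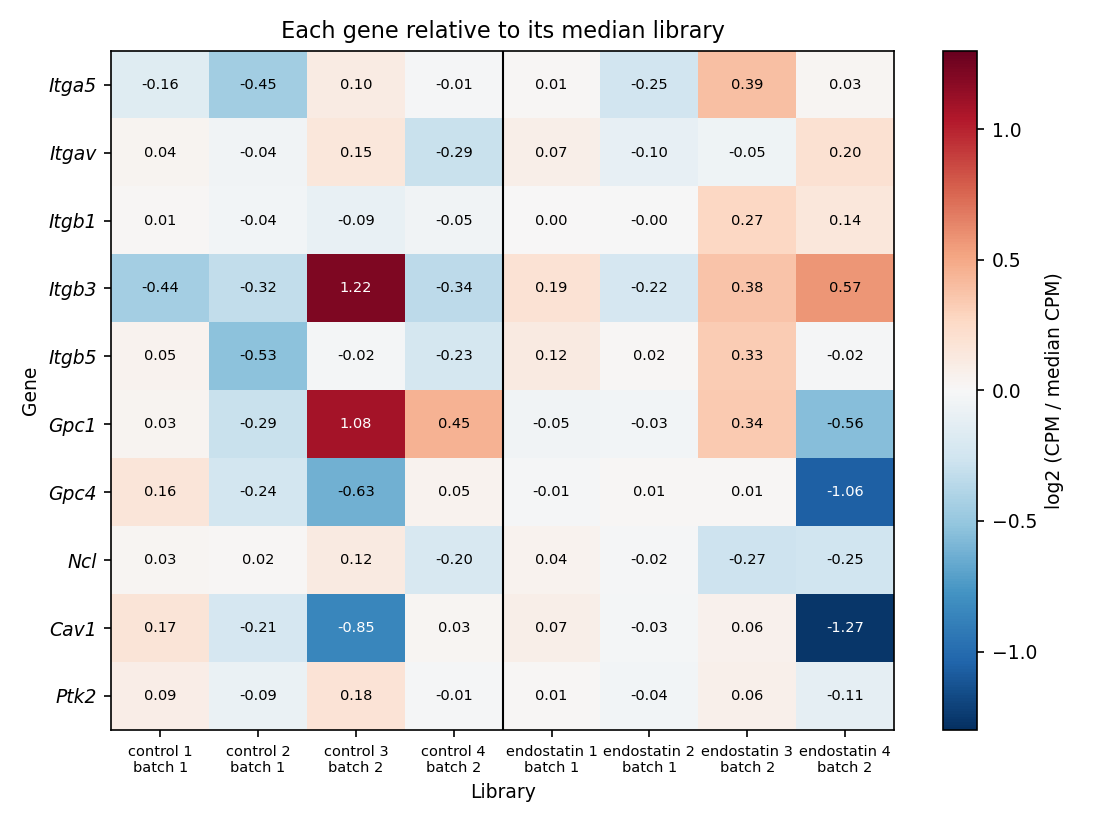
The 10 genes in each library as log2 of CPM over the gene's median library, with 1 row per gene and 1 column per library. Control 3 stands out with Itgb3 and Gpc1 high (2.32 and 2.12 times) and Cav1 and Gpc4 low, and endostatin 4 with Cav1 and Gpc4 low (0.415 and 0.479 times).

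Ptk2 (ENSMUSG00000022607), the focal adhesion kinase that integrins activate, was the steadiest of the 10, with a range narrower than that of all but 6.35% of genes tested. Controls held 70.3, 62.2, 74.7 and 65.5 CPM and endostatin libraries 66.7, 64.4, 69.02 and 61.1 CPM. Endostatin 4 was the lowest library and the other 3 endostatin libraries lay inside the control range. The log2 fold change was -0.06 ± 0.09 with the narrowest interval of the 10, from -0.26 to 0.14.

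**Figure D4:**
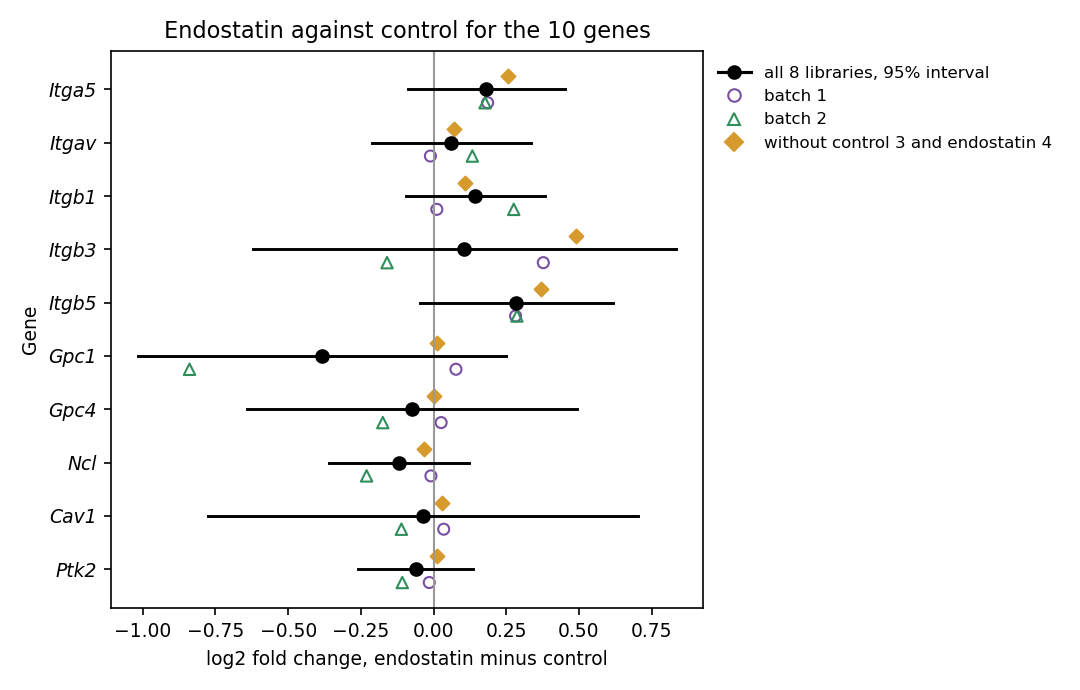
log2 fold change of endostatin minus control for the 10 genes, with filled points and bars for all 8 libraries and their 95% intervals, open symbols for each batch alone and diamonds for the fit without control 3 and endostatin 4. Every interval includes 0, and Gpc1 and Itgb3 are the genes whose batches lie farthest apart.

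The batches agreed in sign for 5 of the 10 genes, Itga5, Itgb1, Itgb5, Ncl and Ptk2, where 47.7% of all genes did. The interaction between batch and treatment was called for 0 of 10 (0% of all genes; unadjusted 0 of 10 and 3.47%), by edgeR, DESeq2 and limma-voom alike, while over all genes DESeq2 called 28 interactions and limma-voom 0. Between the batches themselves 0 of 10 passed, against 0.0395% of all genes. At an unadjusted p under 0.05, where 9.96% of genes lay, were Itga5 and Itgb3, both higher in batch 2 (Itgb3 by 0.74 ± 0.32, edgeR adjusted p = 0.499). Without both control 3 and endostatin 4 the batch difference of Itgb3 was 0.22 ± 0.16 and that of Itga5 0.41 ± 0.12. Half-widths of the 95% intervals ran from 0.20 for Ptk2 to 0.74 for Cav1 on the log2 scale, against a median of 0.30 for genes of at least 10 CPM. These intervals are not adjusted for the number of genes tested. A call after adjustment would need a difference larger than these half-widths.

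**Figure D5:**
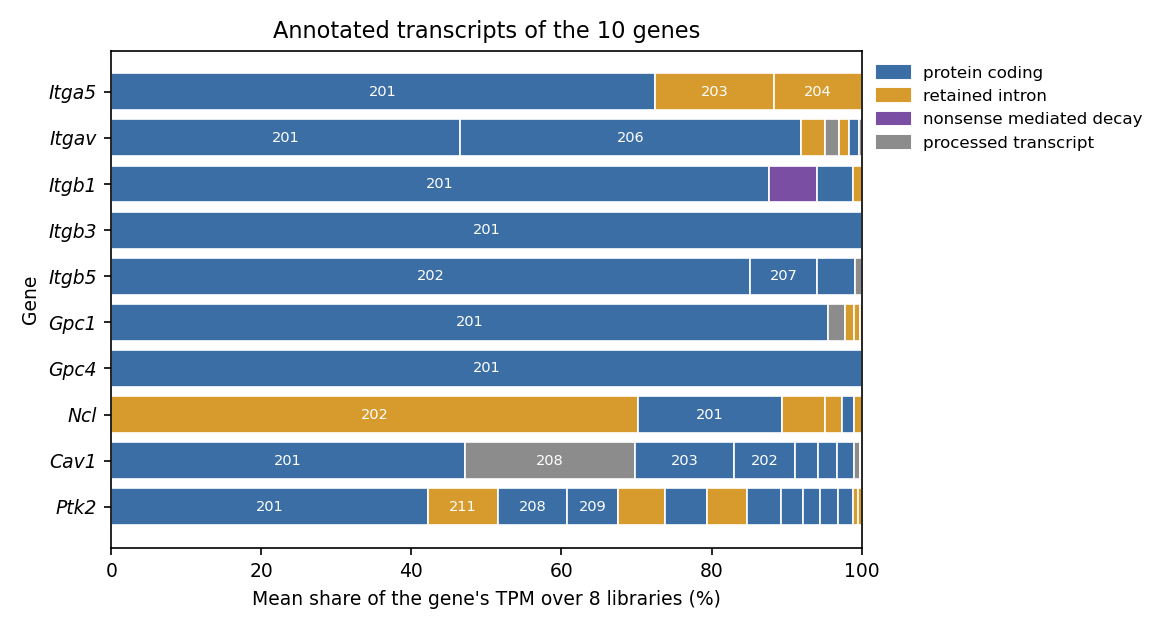
Mean share of each gene's TPM over 8 libraries held by its annotated transcripts, as stacked bars in percent coloured by the annotated type. A single transcript holds 100% of Itgb3 and Gpc4, and a retained-intron transcript holds 70.2% of Ncl.

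Transcript use within the 10 genes was compared as the share of the leading transcript. A single transcript held 100% of Itgb3 and Gpc4. For the other 8 the leading transcript's share of the gene's TPM was compared by a two-sided exact permutation test, adjusted over 8 genes. The exact permutation test ran over 70 assignments of all libraries (smallest possible p 0.0286) and took no account of batch. A single gene could not go below an adjusted p of 0.229 in this exact permutation test, so it could not have called 1 gene alone. The largest difference was in Itga5-201, at 69.9% ± 4.15 in controls and 75.0% ± 2.79 with endostatin (SD, n = 4 each; exact permutation p = 0.114, adjusted p = 0.914), a gap of 5.09 percentage points, and the smallest in Itgb1-201, at 87.7% and 87.6%. Of the reads of Itga5, Itga5-201 held 96.8% to 98.3% in each library. The retained-intron transcripts Itga5-203 and Itga5-204, of 425 and 563 bases, held 15.9% and 11.7% of the TPM on average. Of the reads they held 1.05% and 1.29%. The shares were 46.1% and 46.8% for Itgav-201, 83.8% and 86.5% for Itgb5-202, 94.7% and 96.3% for Gpc1-201, 47.9% and 46.2% for Cav1-201 and 44.0% and 40.4% for Ptk2-201, the first value of each pair being the control.

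Ncl was the only one of the 10 led by a transcript annotated as noncoding. Ncl-202, of 3072 bases with 2 retained introns of 682 bases in all, held 69.8% ± 3.63 of its TPM in controls and 70.6% ± 2.11 with endostatin, and 55.9% of its reads. The coding transcript Ncl-201 held 19.1% and 19.4% of the TPM and 42.9% of the reads; its annotated length is 8202 bases, 5978 of them in 1 exon, for a coding sequence of 2121 bases. The libraries were made from total RNA. In Itgb1 a transcript that skips 1 exon of 223 bases and is annotated as a target of nonsense-mediated decay, Itgb1-202, held between 0% and 11.3% of the TPM. Ptk2, with 15 annotated transcripts, was the most divided, with 42.2% in Ptk2-201.

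The remaining integrins, matrix ligands, proteoglycans and focal adhesion genes were read from lists by pathway, and 0 genes of these lists were called (0% of all genes). Of 16 other alpha subunits 15 were tested, with 10 positive and 5 negative and a median of 0.10. Itgam, the alpha subunit of the leukocyte receptor Mac-1, differed by 0.74 ± 0.25 (edgeR adjusted p = 1), with 0.14 in batch 1 and 1.35 in batch 2. Itgb2, its beta partner, differed by 0.52 ± 0.22, and Fermt3, the kindlin of blood cells, by 0.42 ± 0.17. All 9 macrophage markers also had positive fold changes, with a median of 0.41 (0.00 in batch 1 and 0.82 in batch 2) and sums of 933 to 1391 TPM in controls and 1171 to 2084 TPM with endostatin; their part in the leukocyte integrins was not tested. Itga2b, the platelet partner of beta3, differed by 0.58 ± 0.26, Itgae by -0.42 ± 0.38 (0.02 without both control 3 and endostatin 4) and Itga8 by -0.25 ± 0.34.

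Of 5 other beta subunits 4 were tested, 3 of them positive (4 without both control 3 and endostatin 4, and 2 without both control 1 and control 4). Itgb7 was at 0.28 ± 0.24 (0.05 without both control 1 and control 4) and Itgb8 at -0.36 ± 0.47 (0.20 without both control 3 and endostatin 4). Of the 10 other heparan sulfate proteoglycans 9 were tested, with 7 positive and a median of 0.12. Gpc3, another glypican, differed by 0.30 ± 0.13 and the syndecan Sdc3 by 0.18 ± 0.09, and Agrn by -0.18 ± 0.23 and Gpc2 by -0.12 ± 0.31. Without both control 3 and endostatin 4 the last of these were 0.05 for Agrn and 0.06 for Gpc2. The focal adhesion list had 27 of 28 tested, 19 positive and 8 negative, with a median of 0.04. Nedd9, a scaffold that focal adhesion kinase phosphorylates, had the smallest p there, at 0.37 ± 0.11 (edgeR adjusted p = 1), against -0.14 ± 0.10 for its relative Bcar1 and -0.26 ± 0.24 for the actin crosslinker Actn1. Actn1 was highest in control 3, at 129 TPM against 45.5 to 63.6 TPM elsewhere, and its fold change was 0.06 without both control 3 and endostatin 4.

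Of 14 integrin ligands 12 were tested, with 10 positive and 2 negative and a median of 0.20 (0.08 in batch 1 and 0.31 in batch 2). Vitronectin (Vtn), the ligand of alphavbeta3 and alphavbeta5, stood at 11.6, 13.2, 8.79 and 14.6 CPM in controls and at 18.7, 21.6, 14.8 and 26.8 CPM in endostatin libraries, so the groups did not overlap. Its log2 fold change was 0.76 ± 0.23 (edgeR adjusted p = 1), with 0.70 in batch 1 and 0.83 in batch 2, and 0.47 without both control 3 and endostatin 4. Vitronectin of plasma is made in the liver, and liver markers moved in the same direction: 13 of 14 had positive fold changes, with a median of 3.68. Albumin (Alb) was at 88.6, 51.1, 10.0 and 18.3 TPM in controls and 194, 257, 17.2 and 487 TPM with endostatin. The sum of all 14, at 1405 to 5342 TPM in controls and 2005 to 5004 TPM with endostatin, was mostly Cyp2e1, the 1 marker with a negative fold change, at 1392 to 5242 TPM. The other 13 summed to 146, 101, 13.0 and 20.3 TPM in controls and 354, 545, 20.6 and 1048 TPM with endostatin, a split made after the values were seen. Endostatin 3 lay among the controls and the other 3 endostatin libraries above all of them. The part of liver RNA in the vitronectin values was not tested. The other ligands with the smallest p in each direction were Fbln5 at 0.44 ± 0.25, Tnc at -0.17 ± 0.35 and Ccn2 at -0.03 ± 0.15. Without both control 3 and endostatin 4 these were 0.15, 0.34 and 0.08. Of the 25 genes named from the lists, 7 turned in sign without that pair and 2 without both control 1 and control 4.

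Genes whose pattern over the 8 libraries was nearest to a member's were found by the root mean square difference of centred log2 CPM among 9995 genes. For Itgb5 these were Fam114a1 (0.101), Med16 (0.102) and Tnk2 (0.103), where a flat profile would differ from Itgb5 by 0.237. For Itgb3 they were Sdc1 (0.103), Atp8b1 (0.117) and Plat (0.131), against 0.535 for a flat profile. Sdc1, a syndecan, was highest in control 3, at 47.9 CPM, which follows from its choice by likeness to Itgb3.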

How the data were processed

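Libraries were strand-specific and made from ribosomal RNA-depleted total RNA, per the labels' protocols. Transcripts were quantified with Salmon on GRCm39, per the submitters' processing notes; its version is not given in the sources used. The deposited files hold estimated counts and TPM for 115620 transcripts. By identifier 98.4% matched GENCODE M21 names, and these were summed per gene. The 1910 without a match were kept as features of their own and counted with the genes. M21 is built on GRCm38, so no coordinates are given. Estimated counts were rounded and tested with edgeR 4.0.16 (R 4.3.3): low-count filter, TMM scaling, quasi-likelihood fit with batch and treatment, Benjamini-Hochberg adjustment and a threshold of 0.05. CPM values are TMM-scaled. The test was checked on simulated counts. DESeq2 1.42.0 and limma 3.58.1 were alternatives. The description of endostatin 4 repeats the read file stub of endostatin 3, but their counts differ beyond sampling noise. All 10 genes were named whatever their values; from each pathway list, up to 2 genes per direction with the smallest p and at least 1 CPM. Genes and lists were chosen with earlier results of these data known.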

Additional observations from a re-analysis of the deposited data

Results flagged for a closer look

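In 20 groups of 4 libraries, 1 for each of the 10 genes and treatments, 3 held a library far from the other 3. Chance gives about 1 in 20 independent groups. These groups share the same libraries and are not independent, so their number cannot be weighed against that rate. Itgb3 in control 3 was at 34.9 CPM, where the other controls had 11.1 to 12.1 CPM. Gpc4 in endostatin 4 was at 51.7 CPM and Cav1 in endostatin 4 at 822.7 CPM, where the lowest of the other endostatin libraries had 107.0 and 1948 CPM. These are the libraries with 616 and 872 TPM of oviduct and uterus markers, whose part in these values was not tested.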

How the results depend on the processing

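No alternative brought any of the 10 genes past the threshold. Leaving out 1 library at a time gave log2 fold changes of -0.0347 to 0.125 for Itgav, -0.10 to 0.54 for Itgb3, -0.30 to 0.12 for Gpc4 and -0.34 to 0.18 for Cav1, which include both signs, and the other 6 genes kept their sign. Other settings left out 2 libraries whose marker levels were known from earlier results of these data. Without both control 3 and endostatin 4, Gpc1 was 0.0111, Gpc4 0.00307, Cav1 0.0304 and Ptk2 0.0118, and without both control 1 and control 4, Itgav was -0.018, Itgb3 -0.25, Gpc4 0.22 and Cav1 0.32. With transcript length offsets Ptk2 was 0.0468. The cause of these changes was not tested. Over all genes, DESeq2 called 3 higher and 1 lower with endostatin, 85 higher and 86 lower in batch 2, and 28 interactions. limma-voom called 2 higher and 8 lower in batch 2, and with quality weights 1 higher with endostatin. The 1 higher and 5 lower genes between batches became 0 to 2 and 0 to 16 with 1 library left out, and 3 and 24 without both control 3 and endostatin 4, which for the batches and the gene lists, like the other scalings of the lists, was chosen after seeing the data. Leading transcript shares, with 1 library left out, differed by -1.61 to 2.72 percentage points for Itgav, -0.959 to 2.12 for Itgb1, -0.147 to 4.94 for Itgb5, -1.32 to 3.28 for Gpc1 and -0.36 to 2.41 for Ncl. With the replicate number as a block, 0 genes were called and Itgb5 was 0.30. Same-numbered libraries correlated at 0.31, 0.16, -0.20 and -0.30, and 1 of 4 numbers correlated best with itself. No pairing by number was seen in these values, which cannot show whether samples were paired by design. All 10 genes lay above 3 counts in every library.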
